A study of Mus musculus with 12 samples.

Results

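The genes described here are 10 genes of iron uptake, storage and export, Hamp, Tfrc, Tfr2, Trf, Fth1, Slc40a1, Slc11a2, Scara5, Steap4 and Cp, measured by microarray in the livers of mice exposed to secondhand smoke (SHS). They were chosen by name for their role in iron handling, with earlier results of these data known. Of the 10, 9 had at least 1 probe set of their own, out of 18193 gene symbols that did, and together they had 27 probe sets of the 45037 that were fitted. A probe set is the group of short probes on the array that reads 1 transcript or part of it. Trf was represented only by a probe set that names both Trf and Srprb, so its signal could not be assigned to Trf alone.

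The 12 arrays held liver RNA of adult male C57BL/6 mice, 4 arrays in each of 3 groups. Each array is taken here as 1 liver, although no label says that it was a separate mouse, and p-values measure only the spread between these arrays. The group called recovery (SHS4m+1m recovery, replicates 70 to 73) had 4 months of whole-body SHS and then 1 month in clean air. The SHS4m group (replicates 66 to 69) had 4 months of SHS without the clean-air month. Control mice (replicates 1 to 4) breathed filtered air. The study kept clean-air controls with and without the added month, and the labels do not say which the 4 control arrays are, so the age match of controls with either group is not known. All mice were fed a standard diet, and no genotype differed between groups. Both comparisons with controls used the same 4 control arrays.

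Liver cells set the body's iron supply. Hepatocytes secrete hepcidin, the product of Hamp, which binds the iron exporter ferroportin (Slc40a1) on macrophages, enterocytes and hepatocytes and sends it to degradation. Iron travels in plasma on transferrin (Trf), enters cells through transferrin receptor 1 (Tfrc), is sensed in hepatocytes with the help of transferrin receptor 2 (Tfr2), and is stored in ferritin, whose heavy chain is Fth1. Ceruloplasmin (Cp) oxidises the iron that leaves cells, and Slc11a2, Scara5 and Steap4 carry, take up or reduce iron on its way in.

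Hamp transcription is known to be driven by bone morphogenetic protein (BMP) signalling and by interleukin-6 acting through Stat3. The bases upstream of Hamp and Steap4 are shown because they were the members whose promoters held the STAT motif, and transcripts of the interleukin-6 pathway are described further on. RefSeq promoters (build GRCm38.p6) were given for 6 of the 10 members, 11 promoters in all, and those of Trf, Slc40a1, Slc11a2 and Scara5 were not used here. Each line holds the 250 bases before the transcript start, 5′ to 3′ on the strand of the gene, at chr7:30944030-30944279 on the minus strand for Hamp and chr5:7960222-7960471 on the plus strand for Steap4. Capitals mark GGCGCC, a BMP response motif, and TTCNNNGAA, a STAT motif.
Hamp: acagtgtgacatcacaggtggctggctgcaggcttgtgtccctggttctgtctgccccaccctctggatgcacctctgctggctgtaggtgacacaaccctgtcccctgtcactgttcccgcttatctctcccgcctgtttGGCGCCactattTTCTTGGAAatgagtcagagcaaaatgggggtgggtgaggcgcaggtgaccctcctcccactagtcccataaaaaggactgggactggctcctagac
Steap4: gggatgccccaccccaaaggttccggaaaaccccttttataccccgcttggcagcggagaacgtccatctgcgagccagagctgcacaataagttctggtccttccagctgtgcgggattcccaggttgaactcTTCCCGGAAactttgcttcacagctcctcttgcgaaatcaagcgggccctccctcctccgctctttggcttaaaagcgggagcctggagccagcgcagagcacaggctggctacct

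The Hamp promoter held GGCGCC at bases 109 to 104 before the start and TTCTTGGAA at bases 97 to 89. Steap4 held TTCCCGGAA at bases 116 to 108. Over 32851 RefSeq promoters cut to the same length and searched on both strands, 9.59% held GGCGCC and 7.02% held TTCNNNGAA. One Tfrc promoter also held GGCGCC, at bases 89 to 84, and the metal response core TGCGCNC, which 12.5% of all promoters held, at overlapping positions. The other motifs searched were TGACNNNGC, an antioxidant response core, TGCACNC, the other form of the metal response core, and CACGTG, the E-box, which 10.2%, 10.4% and 6.02% of all promoters held. None of the 6 motifs was in the windows of Tfr2, Fth1 or Cp.

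Signals are linear array intensities, and a log2 difference of 1 is a doubling. Hepatocyte markers were present and none of the 6 was called in any comparison. In SHS4m minus control 5 of them (Alb, Apoa1, Ttr, Serpina1c and Cyp2e1) nevertheless had differences between -0.48 and -0.26 and Tat one of 0.89, a median of -0.31, which was -0.02 with quantile normalization. Their summed signal was 240033 to 394356 in recovery, 273937 to 305671 in SHS4m and 315930 to 366573 in control livers. On recovery replicate 72 the ratio of 3′ to 5′ signal of the actin control was 8.82, against 3.24 to 4.64 on the other 11 arrays, and that of Gapdh was 4.52 against 2.24 to 2.95, a measure on which high values go with degraded RNA. This array was kept, and results that turn on it are named below. In limma's moderated test with Benjamini-Hochberg adjustment over all probe sets, 5.4% of probe sets were called between SHS4m and control (2430), 2.07% between recovery and control (931) and 2.54% between recovery and SHS4m (1142), a call being an adjusted p under 0.05.

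Between SHS4m and control, 3 of the 27 member probe sets were called, and all were higher in SHS4m: 1 of Scara5 and both of Tfr2. This was 11.1% of the member probe sets, beside 5.4% of all probe sets (2.52% higher and 2.87% lower), and 7 of 27 (25.9%) had an unadjusted p under 0.05, beside 17.4% of all. In each of the other comparisons 7 of 27 did as well, beside 13.3% of all for recovery minus control and 13.7% for recovery minus SHS4m. Between recovery and control only 1 was called, a Cp probe set that was lower (3.7%, beside 2.07% of all, of which 0.877% higher and 1.19% lower). Between recovery and SHS4m 3 were called (11.1%, beside 2.54% of all, of which 1.32% higher and 1.22% lower), 1 Slc40a1 probe set higher and 1 each of Scara5 and Cp lower. By the brightest probe set of each gene, 2 of 9 members were called between SHS4m and control (22.2%, beside 7.47% of all genes). None of the 9 was called between recovery and control (beside 2.52%), and 1 was between recovery and SHS4m (11.1%, beside 3.68%). With so few calls, and members chosen with earlier results known, these shares describe the genes one by one rather than the group. The median member difference was -0.07 for SHS4m minus control, -0.04 for recovery minus control and -0.01 for recovery minus SHS4m, beside 0 over all probe sets. The threshold of the study was also applied to this fit, as an unadjusted p under 0.05 with at least a 2-fold change. By it 1 member probe set passed in each comparison, beside 2.47%, 1.37% and 1.7% of all probe sets in the same order of comparisons. The processing of the study was not repeated, so these are not its own counts.

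**Figure D1:**
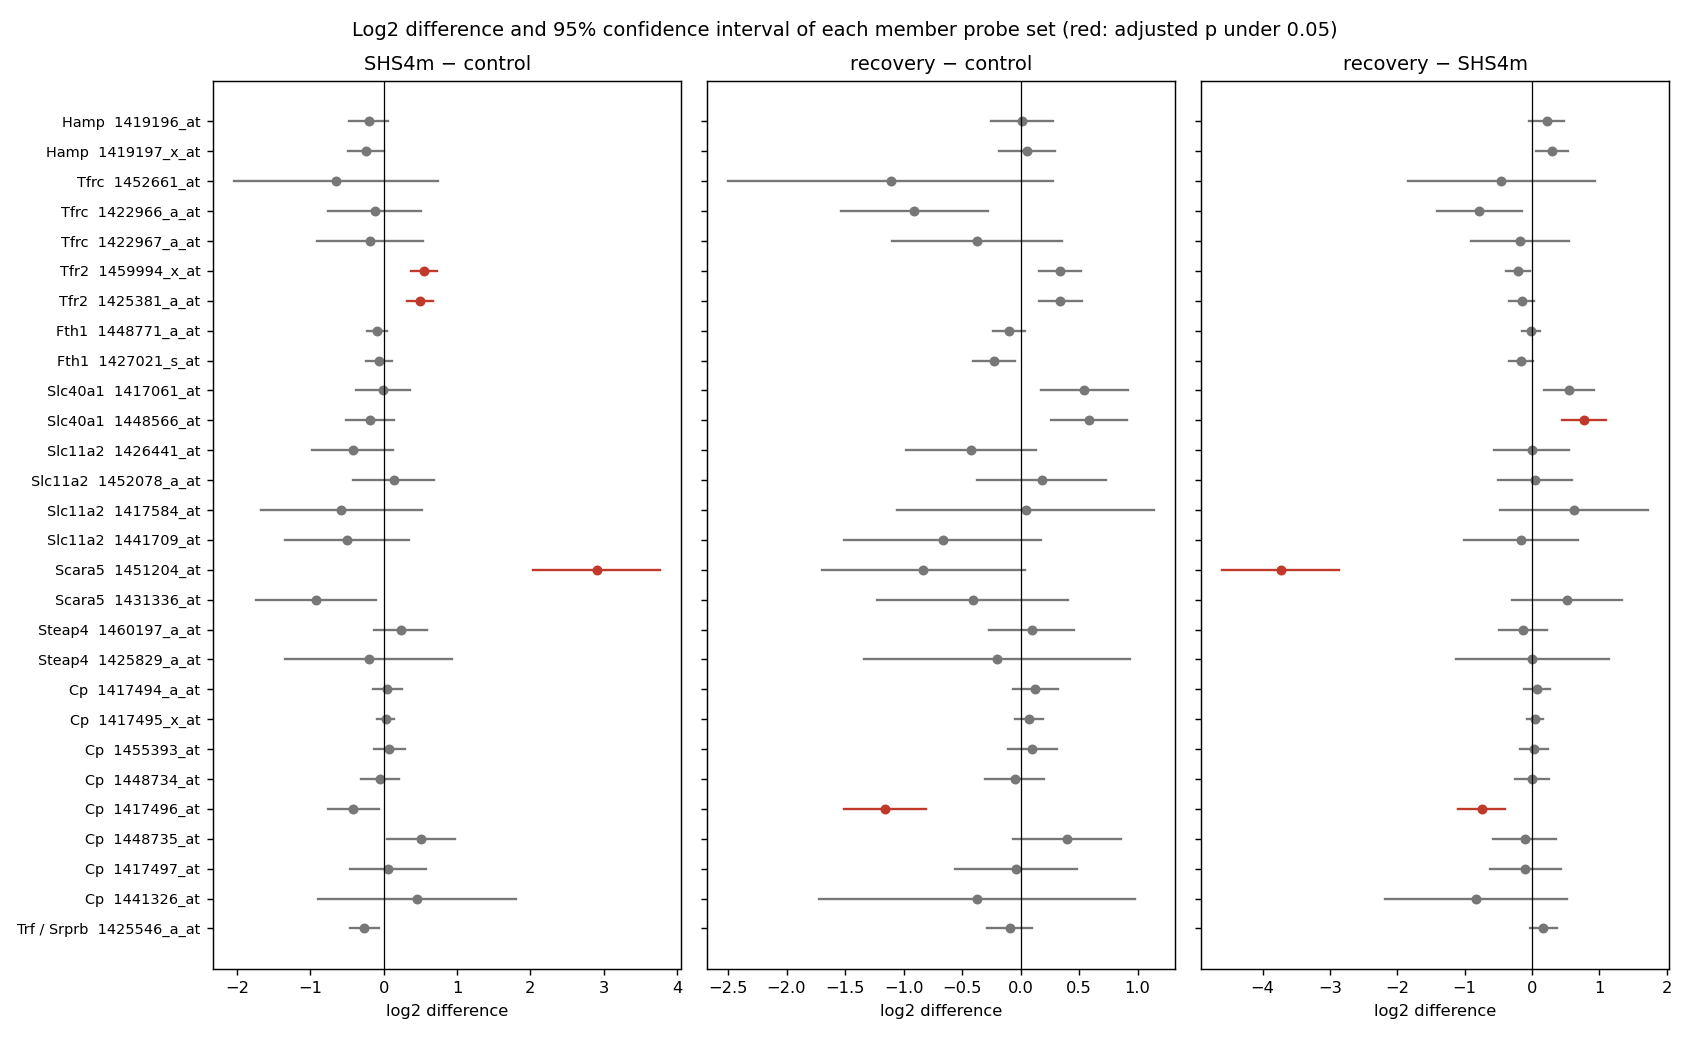
Log2 difference (points) with its 95% confidence interval (bars) for the 27 member probe sets and the shared Trf and Srprb probe set, by row, in the 3 comparisons, red where the adjusted p was under 0.05. Scara5 1451204_at stands at 2.90 in SHS4m minus control and -3.73 in recovery minus SHS4m, while the Hamp and Fth1 probe sets lie within 0.30 of 0 in every panel.

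Scara5, a scavenger receptor known in mouse kidney to take up ferritin, had the widest differences of the members. Its leading probe set, the one with the highest mean log2 signal over the 12 arrays (1451204_at), read 99.39, 62.82, 75.29 and 197.1 in the recovery livers. The SHS4m livers read 1299, 1153, 996.1 and 1935, and control livers 252.2, 130.8, 125.0 and 224.9. All 4 SHS4m livers were far above every other liver, and recovery livers overlapped with controls. SHS4m was 7.47-fold above control, a log2 difference of 2.90 (SE 0.39, limma adjusted p = 0.00342, 95% confidence interval 2.03 to 3.77). Recovery was 13.3-fold below SHS4m, a difference of -3.73 (limma adjusted p = 0.00221). The difference of recovery from control was -0.83 (limma adjusted p = 0.404, interval -1.70 to 0.04). Both calls of this probe set held under every alternative run, with limma adjusted p of 0.0124 or less for SHS4m against control and 0.0179 or less for recovery against SHS4m.

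The other Scara5 probe set, 1431336_at, was dim and had the opposite sign in the comparisons with SHS4m. It read 43.95, 145.1, 78.19 and 130.1 in recovery, 53.08, 85.72, 65.9 and 51.96 in SHS4m and 96.11, 111.9, 111.5 and 168.2 in control livers. Each SHS4m liver lay below each control liver, a log2 difference of -0.92 that was not called (limma adjusted p = 0.217). It differed by 0.51 between recovery and SHS4m and by -0.41 between recovery and control, neither called. The called Scara5 differences thus lay on 1451204_at, and the dim set ran the other way in SHS4m without being called. The higher SHS4m level was carried by 1451204_at alone.

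In bulk liver, fewer cells of a type and less RNA per cell cannot be told apart. Scara5 is known from fibroblast-like cells as well as epithelium, and of 8 stellate cell and fibroblast markers none was called in any comparison. Their summed signal was 10966 to 14474 in recovery, 13304 to 16792 in SHS4m and 10222 to 15586 in control livers, with no marker at the floor on all arrays. Of 10 acute-phase genes 4 were higher in SHS4m than in control livers and 6 were not called. Lcn2 is among those 4, and it is counted again with the other iron genes below. In recovery 4 were lower than in SHS4m livers and 6 were not called. By brightest probe set, 7.47% and 3.68% of all genes were called in these comparisons. Acute-phase sums were 83969 to 108519 in recovery, 109024 to 172423 in SHS4m and 96264 to 106734 in control. Fgg and Orm1, the brightest of the 10 by group mean, were not called between SHS4m and control (-0.11 and 0.10). The part of the fibroblast markers or of the acute-phase genes in the Scara5 result was not tested.

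Tfr2, which in hepatocytes helps to relay plasma iron to hepcidin transcription, was higher after SHS on both of its probe sets. The leading one, 1459994_x_at, read 16385, 17044, 19544 and 16152 in recovery livers. It read 20276, 19794, 18453 and 21243 in SHS4m and 12758, 15499, 12944 and 13518 in control livers. Every SHS4m liver and every recovery liver lay above every control liver, and recovery overlapped with SHS4m. SHS4m exceeded control by 1.46-fold, a log2 difference of 0.55 (SE 0.08, limma adjusted p = 0.00485). The suffix _x marks probe sets whose probes can also match other transcripts, so the second probe set bears on the reading. That set, 1425381_a_at, read 6041, 6902, 7664 and 6159 in recovery, 7430, 7468, 7024 and 7794 in SHS4m and 5047, 5907, 4960 and 5220 in control livers. SHS4m again exceeded control, by 0.49 (SE 0.08, limma adjusted p = 0.00896), and again no control liver reached the other 2 groups.

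After the clean-air month Tfr2 lay between SHS4m and control. Recovery minus control was 0.34 on both probe sets and missed the threshold (limma adjusted p = 0.067 and 0.0756), although the groups did not overlap. For 1459994_x_at this comparison was called with quantile normalization (adjusted p = 0.041) and without control replicate 2 (adjusted p = 0.0335). Recovery minus SHS4m was -0.21 and -0.16 and was not called (limma adjusted p = 0.253 and 0.461).

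**Figure D2:**
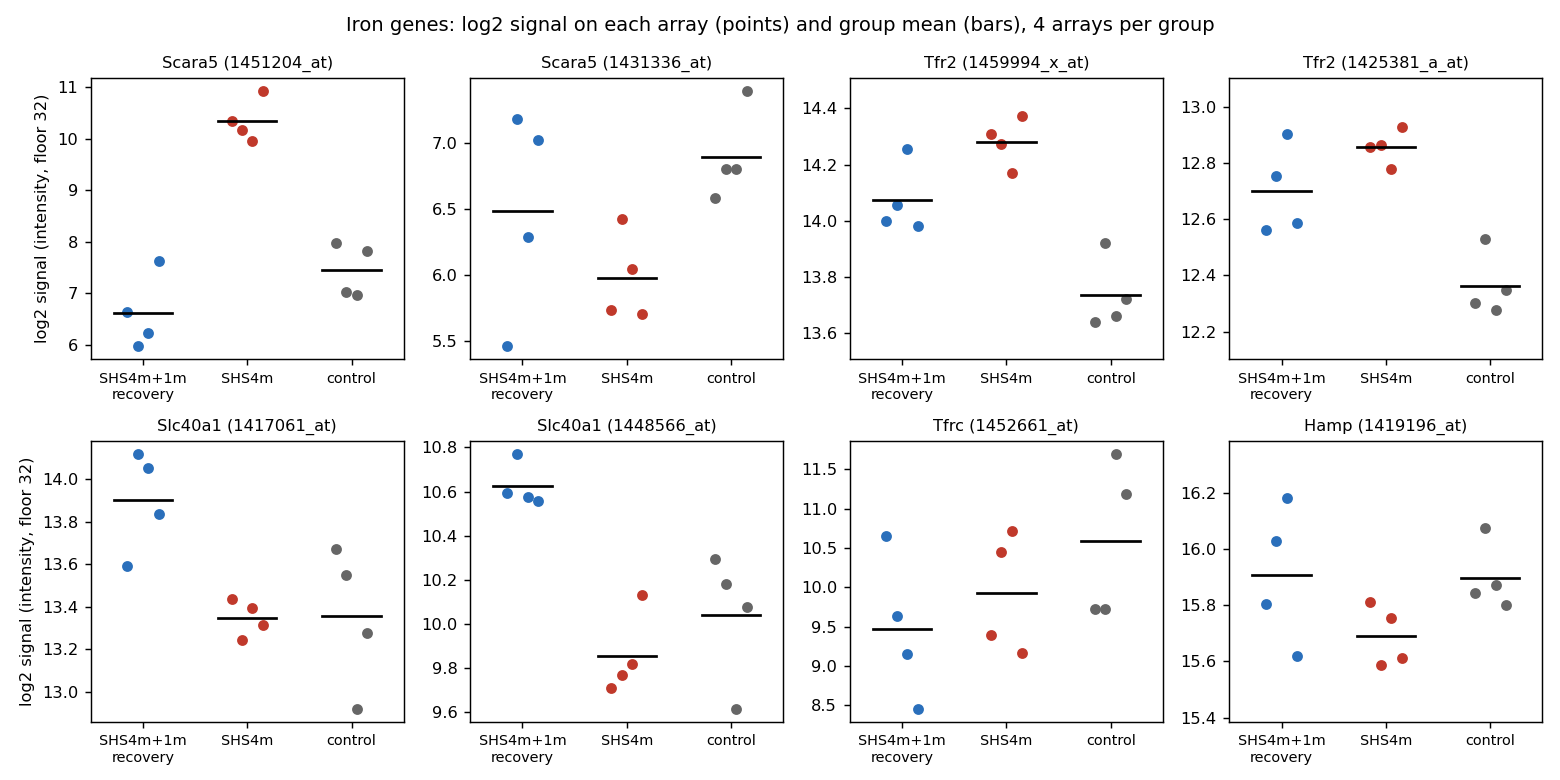
Log2 signal (vertical axis, intensity raised to a floor of 32) on each array for 8 probe sets, with recovery, SHS4m and control from left to right, points for arrays and bars for group means of 4. Scara5 1451204_at is high only in the 4 SHS4m livers, both Tfr2 panels have all controls lowest, and both Slc40a1 panels have recovery highest on average. Vertical axes differ between panels.

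Slc40a1, the only known iron exporter of vertebrate cells and abundant in Kupffer cells, was higher in recovery than in SHS4m livers on 1 of its 2 probe sets. That set, 1448566_at, read 1544, 1747, 1524 and 1508 in recovery, 836.8, 871, 903.5 and 1122 in SHS4m and 1254, 1159, 783.8 and 1080 in control livers. All recovery livers lay above all others. Recovery exceeded SHS4m by 1.70-fold, a log2 difference of 0.77 (SE 0.14, limma adjusted p = 0.0273, interval 0.44 to 1.09), and exceeded control by 0.58 (limma adjusted p = 0.0819). SHS4m minus control was -0.18 (limma adjusted p = 0.612). The call between recovery and SHS4m was lost when any 1 of the 4 recovery livers, or SHS4m replicate 66, 67 or 68, was left out (limma adjusted p from 0.0556 to 0.0743), and with no floor on low signals (0.0751).

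The leading Slc40a1 probe set, 1417061_at, had differences of the same sign that were not called. It read 12349, 17787, 17008 and 14623 in recovery, 11077, 9690, 10751 and 10169 in SHS4m and 13055, 11993, 7746 and 9917 in control livers. Recovery lay above SHS4m without overlap, by 0.55 (limma adjusted p = 0.137), and differed from control by 0.55 as well (adjusted p = 0.154). Between SHS4m and control it differed by -0.01, with an interval of -0.38 to 0.36. Of 7 Kupffer cell markers, 1 (Clec4f) was called between recovery and SHS4m, beside 3.68% of all genes by brightest probe set. It was higher in recovery by 0.46 on the log2 scale. Marco ran the other way in this comparison, by -0.99, and was not called (limma adjusted p = 0.211). Clec4f differed by -0.51 in SHS4m minus control, which was called, and by -0.05 in recovery minus control, which was not. The summed signal of the 7 markers was 13386 to 17879 in recovery, 12600 to 15598 in SHS4m and 15511 to 18785 in control livers. None was at the floor on all arrays. The part of these cells in the Slc40a1 values was not tested.

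Cp, the plasma ferroxidase that oxidises iron so that transferrin can bind it, had 8 probe sets, and they did not move together. The probe set 1417496_at read 4939, 4619, 4386 and 3114 in recovery, 7770, 8189, 6616 and 5875 in SHS4m and 9847, 8190, 9492 and 10158 in control livers. The recovery livers were the lowest 4 of the 12 and did not overlap with either other group. Recovery was 2.24-fold below control, a log2 difference of -1.16 (SE 0.16, limma adjusted p = 0.00925), a call that held under every alternative run. Recovery minus SHS4m was -0.75 (limma adjusted p = 0.0391), and this call was lost under 11 alternatives, 8 of which left out 1 array (SHS4m 66, 67 or 68, recovery 71 or 72, control 1, 3 or 4), with limma adjusted p from 0.0568 to 0.117. The difference of SHS4m from control was -0.41 and was not called (limma adjusted p = 0.192).

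The leading Cp probe set, 1417494_a_at, gave another picture. It read 40132, 49608, 53065 and 40451 in recovery, 44738, 43361, 41023 and 43435 in SHS4m and 40971, 41920, 43463 and 40416 in control livers. The groups overlapped throughout. Its recovery minus control difference was 0.13 with an interval of -0.07 to 0.32, which does not reach the -1.16 of 1417496_at. The bright sets 1417495_x_at, 1455393_at and 1448734_at differed by 0.07, 0.10 and -0.05 in that comparison. In SHS4m minus control the 4 bright sets lay between -0.05 and 0.08, and in recovery minus SHS4m between 0.00 and 0.08, with none called. The remaining 3 sets were dim. Of these, 1448735_at differed by 0.51 between SHS4m and control (limma adjusted p = 0.234), and 1441326_at and 1417497_at were not called in any comparison.

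**Figure D3:**
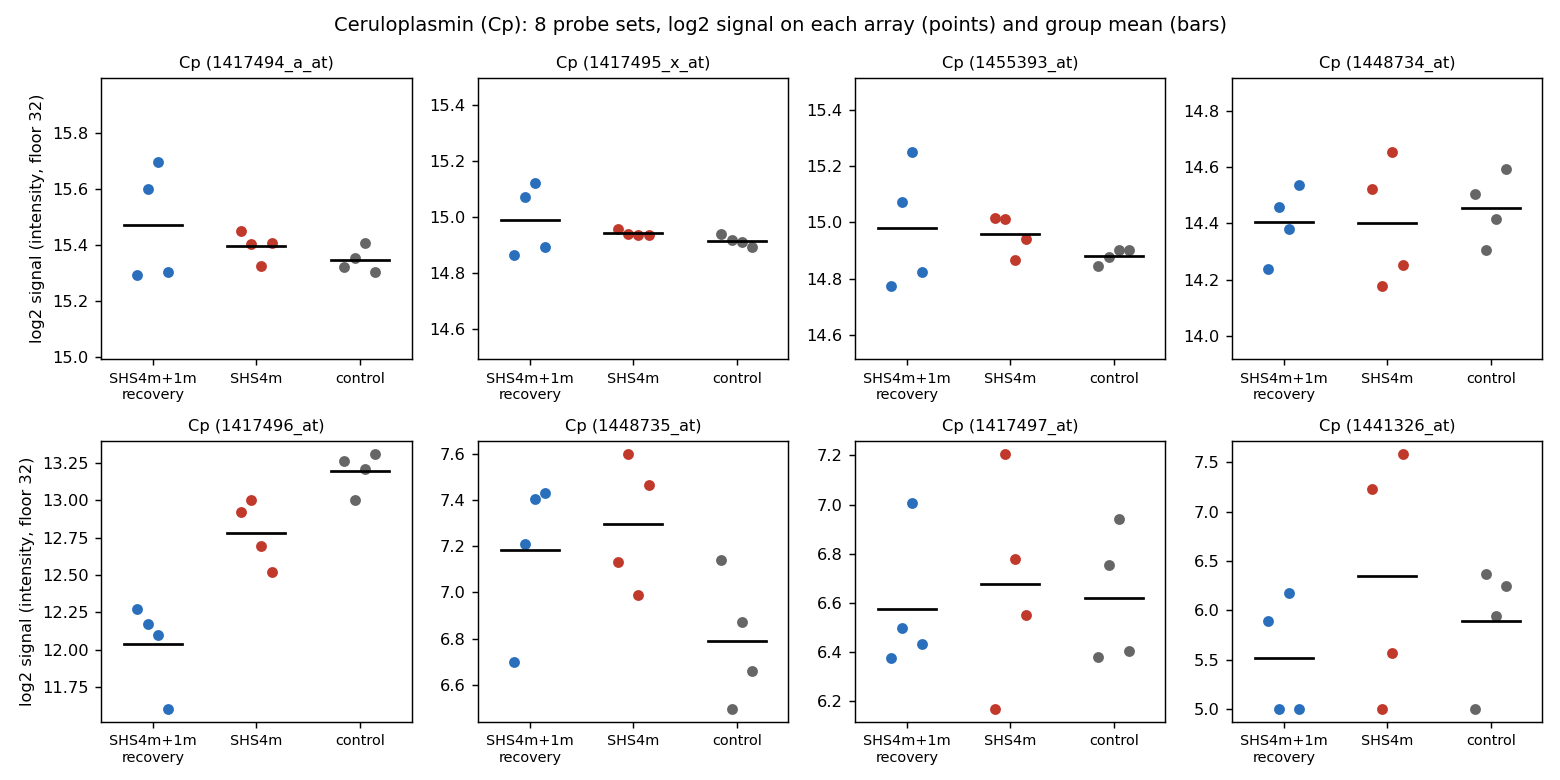
Log2 signal (vertical axis, intensity raised to a floor of 32) of the 8 Cp probe sets on each array, with recovery, SHS4m and control from left to right, points for arrays and bars for group means of 4. Only 1417496_at separates the recovery livers from the others, and in the 4 bright sets of the top row the group means lie within 0.13 of each other.

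Hamp, the gene of the hormone hepcidin, was not called in any comparison. Its leading probe set, 1419196_at, read 57205, 66963, 74368 and 50284 in recovery, 57501, 49260, 55253 and 50146 in SHS4m and 58777, 68995, 59991 and 57062 in control livers. The 3 lowest SHS4m livers lay below every control liver, while recovery livers spread across both groups. SHS4m minus control was -0.21 (limma adjusted p = 0.436, interval -0.47 to 0.06), recovery minus control 0.01 (interval -0.25 to 0.27) and recovery minus SHS4m 0.22 (adjusted p = 0.484).

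The second Hamp probe set, 1419197_x_at, ran the same way. It read 52142, 61647, 64359 and 45535 in recovery, 46969, 44488, 47307 and 41560 in SHS4m and 54024, 56354, 55674 and 47420 in control livers. All SHS4m livers lay below all controls, by -0.24 (limma adjusted p = 0.283). With quantile normalization the SHS4m minus control difference of 1419196_at was 0.05 in place of -0.21, so that its sign depended on the scaling. The hepatocyte marker median of -0.31 was of similar size, and its part in the Hamp values was not tested. Mice carry a near copy of Hamp, Hamp2, and values of its probe sets were looked at afterwards. The bright Hamp2 set, 1436643_x_at, read 16026, 12523, 16888 and 17175 in recovery, 15506, 14407, 16268 and 12308 in SHS4m and 13731, 13626, 10262 and 9611 in control livers. Its SHS4m minus control difference was 0.32 (limma adjusted p = 0.324), opposite in sign to both Hamp probe sets and likewise not called. Like 1419197_x_at it carries the _x suffix, and whether it reads Hamp2 apart from Hamp was not tested. The other Hamp2 set was at or near the floor of 32 on all arrays.

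Tfrc, the receptor that brings transferrin-bound iron into cells, was not called in any comparison of the main fit. All of its fitted probe sets had negative differences in every comparison. On the leading one, signals varied more between livers of 1 group than between groups. Its leading probe set, 1452661_at, read 1611, 798.4, 567.1 and 350.0 in recovery, 674.9, 1396, 1685 and 576.0 in SHS4m and 847.5, 843.2, 3323 and 2335 in control livers. The highest 2 values were control replicates 3 and 4 and the lowest was recovery replicate 73, yet all groups overlapped. The differences were -0.65 for SHS4m minus control, -1.11 for recovery minus control and -0.46 for recovery minus SHS4m, each with an SE of 0.62, and limma adjusted p was at least 0.51. The interval for recovery minus control ran from -2.50 to 0.28, and so took in changes of several fold.

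A dimmer Tfrc probe set, 1422966_a_at, read 45.57, 66.21, 49.8 and 62.72 in recovery, 70.24, 114.5, 101.0 and 101.8 in SHS4m and 121.1, 56.47, 131.3 and 130.4 in control livers. Recovery lay below SHS4m without overlap, by -0.78 (limma adjusted p = 0.224), and below 3 of the 4 controls, by -0.91 (adjusted p = 0.162). Without control replicate 2, the low control, the difference of recovery from control was -1.20 and was called (limma adjusted p = 0.0195). The last Tfrc probe set, 1422967_a_at, was at the floor on 10 of 12 arrays. Erythroid precursors are rich in Tfrc, and of 4 measured erythroid markers 1, Slc4a1, was called. It was higher in SHS4m than in control livers (1.36) and lower in recovery than in SHS4m livers (-1.29). By brightest probe set, 7.47% and 3.68% of all genes were called in these comparisons. The summed erythroid signal was 2648 to 2846 in recovery, 2086 to 3077 in SHS4m and 2430 to 3272 in control livers. Most of it was Alas2, with geometric group means of 2101 in SHS4m to 2699 in control livers. Alas2 differed by -0.36 in SHS4m minus control and was not called (limma adjusted p = 0.151). No marker was at the floor on all arrays, but Epb42 was on 10 of 12 and Hba-a1 on 4. The part of erythroid cells in the Tfrc values was not tested.

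The plasma carrier transferrin could be read only with Srprb, a subunit of the signal recognition particle receptor, on 1425546_a_at. This probe set read 41786, 47171, 49706 and 36092 in recovery, 39900, 37032, 38336 and 39095 in SHS4m and 46283, 47879, 47486 and 43603 in control livers. All SHS4m livers were below all controls, a log2 difference of -0.26 that was not called (limma adjusted p = 0.133, interval -0.46 to -0.07). The hepatocyte marker median was -0.31 in this comparison, and its part here was not tested. The Trf and Srprb difference was called under 3 alternatives, with quantile normalization (-0.14, adjusted p = 0.00665), from the 8 arrays compared alone (0.0184) and without recovery replicate 73 (0.0316). Recovery spanned both groups, and it was not called against control (-0.09) or SHS4m (0.17), although the difference from SHS4m was 0.10 and called with quantile normalization (limma adjusted p = 0.042).

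Fth1, the ferritin heavy chain, which oxidises iron for storage, was not called in any comparison. Its leading probe set, 1448771_a_at, ranged over 45964 to 55363 in recovery, 47845 to 53872 in SHS4m and 51831 to 57544 in control livers. SHS4m minus control was -0.09 (interval -0.22 to 0.05) and recovery minus control -0.10 (interval -0.24 to 0.03), so a 1.5-fold change lies outside both intervals. With quantile normalization the same differences were 0.15 and 0.01, so that their sign depended on the scaling. On 1427021_s_at recovery minus control was -0.22 (limma adjusted p = 0.227), and its lowest reading was recovery replicate 72 at 21696. Ferritin light chain, looked at afterwards, had no probe set of its own. On 1418364_a_at, which names Ftl1 and a pseudogene, SHS4m minus control was -0.05 and recovery minus control 0.08, neither called.

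Steap4, a metalloreductase that prepares ferric iron and copper for uptake, was not called. Its leading probe set, 1460197_a_at, ranged over 1965 to 2628 in recovery, 2113 to 3152 in SHS4m and 1787 to 2629 in control livers. SHS4m minus control was 0.23 (limma adjusted p = 0.565, interval -0.13 to 0.59), and the dim set 1425829_a_at had the opposite sign, -0.21 with an SE of 0.51. Slc11a2, the divalent metal transporter that moves iron out of endosomes, had 4 dim probe sets with signals between 40.3 and 456.0, and none was called. Its leading set 1426441_at differed by -0.43 both in SHS4m minus control and in recovery minus control (limma adjusted p = 0.45 and 0.537), and 1452078_a_at had the opposite sign (0.14 and 0.18). The set 1417584_at differed in sign from it in recovery minus control (0.04) and recovery minus SHS4m (0.62), and neither was called.

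The genes whose array profile was most like each of the 3 members with the largest called change were taken by the root mean square difference of centred log2 signal over the 12 arrays, among 34918 probe sets. For Scara5 1451204_at these were Gstm3 on both of its probe sets (0.62 and 0.76), Gm11827 (0.78), Orm3 (0.78) and Ffar4 (0.78). Gstm3, a glutathione S-transferase, differed by 3.02 between SHS4m and control and by -2.96 between recovery and SHS4m. For Cp 1417496_at the nearest were Ola1 (0.15), Atrx, Rexo2, Kif5b and Xiap, and Ola1 differed by -0.99 between recovery and control. For Slc40a1 1448566_at they were Abhd17b (0.16), on 2 probe sets, Ndel1, Zfp553 and Homer2. These genes were chosen for their likeness, so their differences are a description.

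Beyond the 10 members, 44 of 45 other iron genes were measured, each by its brightest probe set. Of these, 8 were higher and 4 lower in SHS4m than in control livers (27.3%), beside 7.47% of all 18193 genes read in the same way. Recovery differed from control in 3 (6.82%, beside 2.52%), and recovery was lower than SHS4m in 6 and higher in none (13.6%, beside 3.68%). The median differences over the list were 0.06, 0.05 and 0.05, beside 0 over all probe sets. The list was chosen with earlier results of these data known, so these shares are a description and not a test. Calls of these genes were not followed under the alternatives.

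Of 19 genes of hepcidin regulation, 3 were called in at least 1 comparison. All 3 belong to the interleukin-6 pathway, but they did not share a direction. In SHS4m minus control 2 were higher and 1 lower, beside 7.47% of all genes called by their brightest probe set. The interleukin-6 receptor Il6ra read 1621 to 3371 in recovery, 2996 to 3982 in SHS4m and 950.2 to 1156 in control livers, higher by 1.75 in SHS4m (limma adjusted p = 0.00144) and by 1.08 in recovery (0.0261) than in control, while its other probe set was not called. Stat3, the transcription factor of this pathway, was higher in SHS4m than in control livers by 0.61 and lower in recovery than in SHS4m livers, a difference of -0.64. Only 1 of its other probe sets was called in each of these comparisons. Il6st, the shared receptor chain of the pathway, was lower in SHS4m than in control livers, at -0.56. Its other probe sets lay between -0.41 and -0.09 and were not called. None of the 16 other genes of hepcidin regulation, among them the BMP ligands Bmp2 and Bmp6, the co-receptor Hjv, Hfe, the hepcidin inhibitor Tmprss6, the Smads and their target Id1, was called in any comparison. Id1 read 604.2 to 1561 in recovery, 152.6 to 526.4 in SHS4m and 233.9 to 507.6 in control livers, and its recovery minus SHS4m difference of 1.57 had a limma adjusted p of 0.129.

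Among iron transport and storage partners, Lcn2, which binds iron-laden siderophores, had the largest difference. It read 296.2 to 1011 in recovery, 2208 to 10668 in SHS4m and 140.8 to 583.0 in control livers, higher by 3.56 in SHS4m than in control (limma adjusted p = 0.0149) with a recovery minus SHS4m difference of -3.18. Lcn2 is also 1 of the 10 acute-phase genes counted above. Neutrophils also make Lcn2, and of 6 neutrophil markers none was called, with Camp at the floor on all arrays. Their median difference was 0.30 in SHS4m minus control. Their sums were 577 to 790 in recovery, 575 to 1536 in SHS4m and 618 to 1043 in control livers. The part of neutrophils in the Lcn2 values was not tested. Ncoa4, which delivers ferritin to autophagy, was higher by 0.76 in SHS4m than in control livers, as was Slc25a28, a mitochondrial iron importer, by 0.75. Both were lower in recovery than in SHS4m, with differences of -0.58 for Ncoa4 and -0.43 for Slc25a28. The endosomal reductase Steap3 was lower than control in both, at -0.88 in recovery and -0.59 in SHS4m (limma adjusted p = 0.0138 and 0.0334). Its dimmer probe sets had the opposite sign in SHS4m. Pcbp1 and Pcbp2, chaperones that hand iron to ferritin, split. Pcbp1 was lower in SHS4m than in control livers (-0.35, limma adjusted p = 0.0484). Pcbp2 was higher in recovery than in control livers (0.35, limma adjusted p = 0.0296). The Steap family member Steap1 was lower in SHS4m than in control livers, at -1.14, with SHS4m signals of 31.92 to 38.41 that touch the floor.

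Of 8 genes of haem and haemoglobin handling, 3 were higher in SHS4m than in control livers and none was lower. Over all genes, 7.47% were called in this comparison by their brightest probe set. Hmox1, which breaks down haem and frees its iron, read 414.2 to 586.7 in recovery, 653.6 to 2288 in SHS4m and 273.1 to 279.4 in control livers. It was 4.79-fold higher in SHS4m than in control livers (log2 difference 2.26, limma adjusted p = 0.00684), and its recovery minus SHS4m difference of -1.42 was not called (adjusted p = 0.0747). The haem transporter Slc48a1 was higher by 0.56 in SHS4m than in control livers (limma adjusted p = 0.00323). The haemoglobin scavenger receptor Cd163 was higher by 0.57, nearer the threshold (limma adjusted p = 0.0421). In recovery, Slc48a1 and the haem exporter Flvcr1 were lower than in SHS4m livers, with differences of -0.47 and -0.83 (limma adjusted p = 0.0117 and 0.044). Hmox1 and Cd163 are also macrophage genes, and of the 7 Kupffer cell markers 1 was higher (Marco, 1.90) and 1 lower (Clec4f, -0.51) in SHS4m than in control livers, whose part in these values was not tested. Haptoglobin and haemopexin (Hp and Hpx), the plasma carriers of haemoglobin and haem, were not called.

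**Figure D4:**
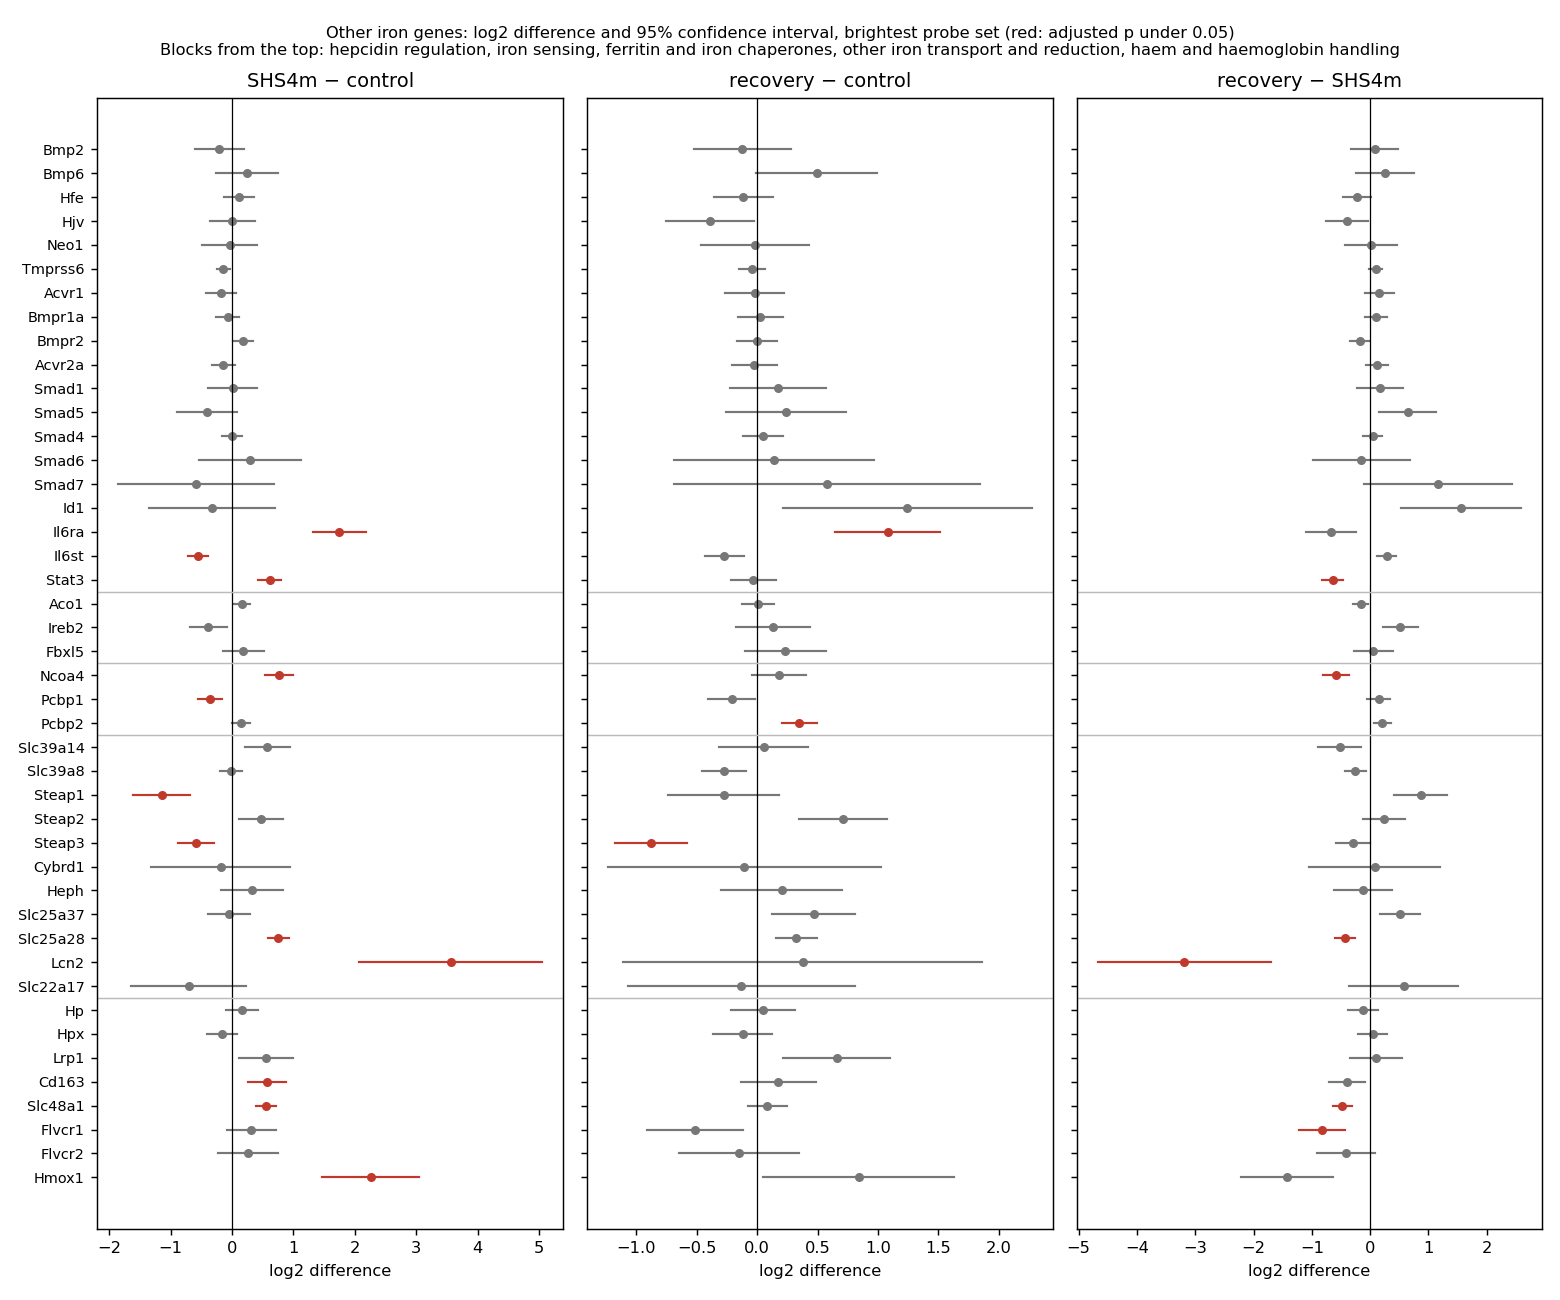
Log2 difference (points) with its 95% confidence interval (bars) for the 44 other iron genes, by row, in the 3 comparisons, red where the adjusted p was under 0.05. The red points of SHS4m minus control include Il6ra at 1.75, Lcn2 at 3.56 and Hmox1 at 2.26, and every red point of recovery minus SHS4m is below 0.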

How the data were processed

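Liver RNA was read on 12 Affymetrix whole-genome mouse expression arrays. The deposited values are linear intensities, which the authors made with Affymetrix Expression Console. How probes were summarized into probe sets is not given in the sources. On every array the mean without the highest and lowest 2% of values was 500, and 29.9 to 33.5% of probe sets lay below 32.

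The deposited intensities were raised to a floor of 32, put on the log2 scale and fitted with limma 3.58.1 (R 4.3.3) as 1 model of 3 groups, without array controls. Tests were two-sided, with Benjamini-Hochberg adjustment over 45037 probe sets. Precision is limited by the small number of arrays (4 a group). The labels do not say whether livers were processed in batches. Tables used Python 3.11.15. The fit was tested on simulated data.

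Gene names came from the platform annotation, in which 34945 probe sets name 1 gene, 932 several and 9160 none. A member was led by its brightest probe set, and other probe sets were named where called or where their sign differed from it. Values are given per array for called probe sets and for the leading sets of Hamp and Tfrc, and other iron genes were named where called. The members and lists were chosen with earlier results of these data known. Alternatives were another floor, none, quantile normalization, median centring, leaving out dim probe sets, the arrays of 1 comparison alone, another variance model, the threshold of the study and leaving out each array.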

Additional observations from a re-analysis of the deposited data

Results flagged for a closer look

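In the 4 recovery livers, Slc40a1 1448566_at read 1747 in replicate 71 against 1508 to 1544 in the other 3, a gap of 0.84 of the range of the group. For Tfrc 1422966_a_at, control replicate 2 read 56.47 against 121.1 to 131.3 in the other 3 controls, a gap of 0.904 of the range. For Tfrc 1422967_a_at, SHS4m replicate 67 (52.92) and control replicate 3 (89.15) were the only arrays of their groups above the floor of 32, a gap of 1 of the range in each. These were the stray arrays in 84 groups of 4 looked at, and chance gives about 5% of groups.

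For 3 probe sets the difference from control changed between SHS4m and recovery, by the test of recovery against SHS4m over the shared controls. Recovery minus SHS4m was -3.73 for Scara5 1451204_at (limma adjusted p = 0.00221), -0.747 for Cp 1417496_at (0.0391) and 0.767 for Slc40a1 1448566_at (0.0273).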

How the results depend on the processing

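The differences of 28 probe sets, the shared Trf and Srprb one included, in 3 comparisons gave 84 results, each run under up to 19 alternatives. Tfrc 1422967_a_at was dropped with the dim probe sets. Of the 84, 77 kept their direction where called and their side of the threshold under all of them. No called difference changed sign, 62 values of uncalled differences did, 20 values lost a call and 7 gained one (4 of them Trf and Srprb, 2 Tfr2, 1 Tfrc). The Scara5 and Tfr2 calls between SHS4m and control, and the Cp call between recovery and control, were kept except for Tfr2 1425381_a_at with no floor (0.49, limma adjusted p = 0.0724).

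Member probe sets called between SHS4m and control numbered 3, between 3 and 3 without any 1 array and 1 at the threshold of the study. Between recovery and control the count was 1, with 2 under quantile normalization and 1 to 3 without any 1 array (3 without control replicate 2). Between recovery and SHS4m it was 3, with 1 at the threshold of the study, 1 with no floor and 1 to 3 without any 1 array (1 without SHS4m replicate 66, 67 or 68 or recovery replicate 71 or 72).

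Over all probe sets, the 2430 called between SHS4m and control became 1520 with a floor at the 25th percentile, 996 with no floor, 1114 at the threshold of the study and 1587 to 2535 without any 1 array. The 931 between recovery and control became 567 without dim probe sets, 475 with median centring, 365 with the percentile floor, 131 with no floor, 258 from the 8 arrays compared alone, 619 at the threshold of the study and 438 to 817 without any 1 array. The 1142 between recovery and SHS4m became 754, 642, 345 and 680 with median centring, the percentile floor, no floor and the 8 arrays alone, and 584 to 1016 without any 1 array. The cause was not tested. No paired analysis was possible because the groups share no replicate numbers.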

Other observations

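The array also carries 3 control probe sets for Tfrc, which were not fitted. The 3′ one read 62.74, 74.0, 70.78 and 16.46 in recovery, 65.07, 53.77, 63.2 and 68.6 in SHS4m and 102.3, 69.86, 131.3 and 100.3 in control livers. The 5′ and middle ones lay at or near the floor of 32 in most livers.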
